A study of Mus musculus with 1504 samples.

Results

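The genes described here are the Hox genes, the homeobox transcription factors that lie side by side in 4 chromosomal clusters and whose combinations mark position along the body axis. Every gene of the deposited read table whose symbol was Hox followed by a cluster letter and a number was taken, which gave 36 of 21947 genes. They were 9 genes of HoxA on chromosome 6 (52155590 to 52260880, mm10), 10 of HoxB on chromosome 11 (96194316 to 96368256), 8 of HoxC on chromosome 15 (102921103 to 103036852) and 9 of HoxD on chromosome 2 (74668310 to 74765142), out of 39 annotated Hox genes. The other 3 annotated genes were not analysed here.

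The cells came from the lungs of adult C57BL/6 mice, 12 to 15 weeks old by the sample labels and 10 to 19 weeks by the series design. They were sorted by reporter fluorescence into plates and sequenced singly by SMART-seq2, which reads whole polyadenylated transcripts. The labels name 769 cells from Cldn5(BAC)eGFP mice, in which a Cldn5 transgene marks endothelium, 374 from Pdgfrb(BAC)eGFP mice, in which a Pdgfrb transgene marks mural cells and some fibroblasts, and 361 from mice carrying Pdgfrb(BAC)eGFP together with NG2dsRed, a Cspg4-driven red reporter. By column name the cells form 3 endothelial sets (EC1 with 243 cells, EC2 with 275 and EC3 with 251) and 3 mural sets (Mural1 with 128, Mural2 with 233 and Mural3 with 374). The EC names belong to the Cldn5 reporter, but the mural names do not state a reporter, so those sets were kept by name. No label separates animals, plates or days. No comparison could therefore be tested across animals, and all intervals below cover counting error only.

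A Hox protein binds DNA through its homeodomain, usually with PBX and MEIS partners, and members with the same number in different clusters, called paralogues, descend from 1 ancestral gene and overlap in function. Within a cluster, genes of low number are switched on earlier and further towards the head than genes of high number, a relation called collinearity. Lung buds arise from the foregut within the domain of low-numbered and middle Hox genes, and Hoxa5 and Hoxb5 are known from mouse mutants to act in lung mesenchyme and airway branching.

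Cells carried 100229 to 609242 reads (median 240178). They were clustered without any Hox gene. Of 13 clusters, 10 were named from marker lists and 3, with 167 cells rich in epithelial or leukocyte markers, were left as mixed. The named classes were 661 general capillary-like, 74 aerocyte-like and 22 lymphatic-like endothelial cells, 66 pericyte-like, 71 smooth muscle-like, 400 fibroblast-like and 43 chondrocyte- or perichondrial-like cells. General capillary cells and aerocytes are the 2 capillary endothelial types of the alveolus. On average 70.4% to 91.7% of a class's own markers had a read per cell. Mixed cells made up 36.5% of Mural2, 16.6% of Mural3, 4.69% of Mural1 and 1.82% of the Cldn5-eGFP cells. Levels are reads summed over the cells of a group divided by all reads of that group (CPM, counts per 1000000 reads), and shares of cells are given after each cell was thinned at random to 50000 reads.

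Promoter windows of 250 bases upstream of the annotated start were found in RefSeq (GRCm38.p6) for 20 of the 36 genes. None was found for Hoxb2, Hoxb3, Hoxb5, Hoxb6 or Hoxb7, so the promoters of these genes are not shown. The windows of 3 other genes are given. Hoxa5 had the highest level per length in general capillary-like cells and a low one in aerocyte-like cells. Hoxb4 was highest in pericyte-like cells, and Hoxa2 was read mainly outside the endothelium by share of cells. Capitals mark matches on either strand to the TATA box core, written TATAAA, to the GC box, written GGGCGG, to the CCAAT box, to the core of MEIS sites, written TGACAG, or to a joint site of HOX and PBX proteins, written TGATTNAT. Adjacent capitals can hold more than 1 match.
Hoxa5 (chr6:52204588-52204837, minus strand): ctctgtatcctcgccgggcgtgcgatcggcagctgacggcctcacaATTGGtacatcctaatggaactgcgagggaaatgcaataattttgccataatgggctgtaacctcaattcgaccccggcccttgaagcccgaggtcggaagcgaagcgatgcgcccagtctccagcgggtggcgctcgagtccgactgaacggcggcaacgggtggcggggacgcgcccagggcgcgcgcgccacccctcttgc
Hoxb4 (chr11:96318017-96318266, plus strand): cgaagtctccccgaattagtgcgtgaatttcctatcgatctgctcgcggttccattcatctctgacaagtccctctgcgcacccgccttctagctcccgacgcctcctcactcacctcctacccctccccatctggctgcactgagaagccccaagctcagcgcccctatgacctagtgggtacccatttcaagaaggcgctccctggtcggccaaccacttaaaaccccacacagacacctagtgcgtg
Hoxa2 (chr6:52164832-52165081, minus strand): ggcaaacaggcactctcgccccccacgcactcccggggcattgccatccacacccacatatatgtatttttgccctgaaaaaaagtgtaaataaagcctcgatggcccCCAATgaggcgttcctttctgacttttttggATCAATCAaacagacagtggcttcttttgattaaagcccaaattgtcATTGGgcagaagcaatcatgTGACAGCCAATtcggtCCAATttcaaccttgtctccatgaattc

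The Hoxa5 window had 63.6% G and C and 28 CpG dinucleotides, against medians of 52.4% and 6 over 32851 mouse promoters, with 1 CCAAT box. The Hoxb4 window had 58.0% G and C, 14 CpG dinucleotides and no match to the motifs searched. The Hoxa2 window held 4 CCAAT boxes, 1 MEIS core and 1 joint HOX and PBX site in 46.4% G and C. Over all promoters, 33.9% held a CCAAT box, 15.9% a MEIS core, 2.83% the joint site, 12.4% the TATA box core and 32.7% the GC box. These are matches of letters and say nothing of binding in these cells.

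Every Hox gene had at least 1 read, but most were close to silent. A level of 10 CPM together with a read in 10% of cells, in some class or column set, was reached by 12 of the 36 genes: Hoxa2, Hoxa3, Hoxa4, Hoxa5, Hoxa7, Hoxb2, Hoxb3, Hoxb4, Hoxb5, Hoxb6, Hoxd3 and Hoxd9. By position these were 7 of 12 genes with numbers 1 to 4, 4 of 11 with numbers 5 to 8, and 1 of 13 with numbers 9 to 13. By cluster they were 5 of 9 in HoxA, 5 of 10 in HoxB, 0 of 8 in HoxC and 2 of 9 in HoxD. The share of all measured genes that reach this level was not counted, so these counts have no background beside them. The heat map of shares by cluster and paralogue number shows this block of low and middle HoxA and HoxB genes in the mural and fibroblast classes.

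**Figure D1:**
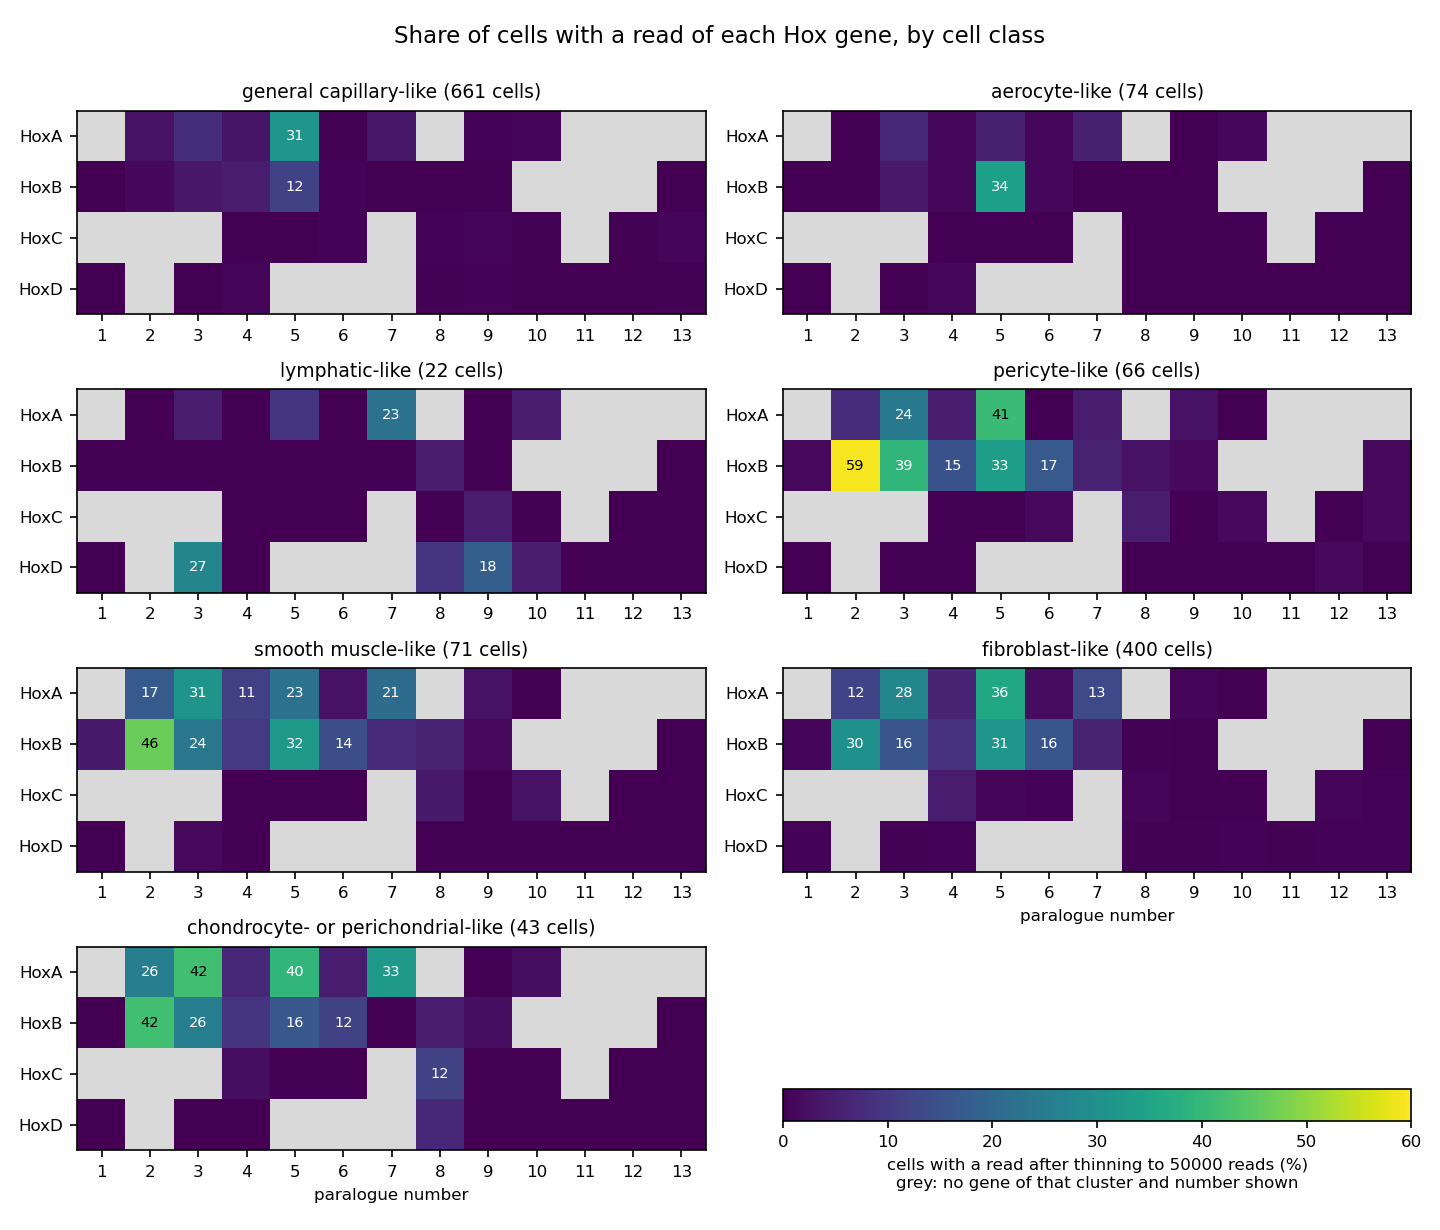
Share of cells with a read of each Hox gene after thinning to 50000 reads (colour, in %), by Hox cluster (rows) and paralogue number (columns), in 7 cell classes; numbers are printed from 10% up and grey positions have no gene shown. Hoxb2 in pericyte-like cells is the highest value (59.1%), and only lymphatic-like cells show HoxD values of 10% or more.

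The other 24 genes did not reach both minimums together, and had a read in 0.0665% to 2.59% of all cells after thinning. Hoxb7 led numbers 5 to 8 at 2.91 CPM. Numbers 9 to 13, the genes of the trunk and tail, ran from Hoxb13 (0.0355 CPM) to Hoxc13 (0.782 CPM). The 8 HoxC genes lay between 0.102 and 1.24 CPM, the highest being Hoxc4, which had 2.82 CPM and 4.75% of cells in the fibroblast-like class and 0 reads in all 3 endothelial classes and in pericyte-like cells.

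Hoxc8 stood apart in 1 column set. Before thinning it had a read in 46 of 128 Mural1 cells, against 10 of 233 in Mural2 and 9 of 374 in Mural3, and 37 of the 46 cells had exactly 1 read, 8 had 2 and 1 had 3. With Hoxc8 itself counted, 3 of 21947 genes combined a read in at least 25% of Mural1 cells with no Mural1 cell over 3 reads. These bounds were set around the values of Hoxc8, so the count cannot measure how unusual it is. The 11.6% of chondrocyte- or perichondrial-like cells with a Hoxc8 read after thinning came from a class of which 38 of 43 cells were Mural1. The 46 Mural1 cells with a read before thinning outnumbered those 38, so some of them were of other classes.

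Summed over all 36 genes, the Hox level per kilobase of exon was 184 CPM in pericyte-like cells, 120.2 in general capillary-like, 94.2 in smooth muscle-like, 83.4 in chondrocyte- or perichondrial-like, 76.8 in fibroblast-like, 60.7 in lymphatic-like and 32.7 in aerocyte-like cells. Paralogue number 5 took 70.6% of that sum in general capillary-like cells and 64.0% in aerocyte-like cells. Its share was 44.0% in fibroblast-like, 34.1% in pericyte-like, 33.7% in chondrocyte- or perichondrial-like and 30.2% in smooth muscle-like cells, where numbers 1 to 4 held 36.4%, 52.3%, 43.9% and 51.5%. Lymphatic-like cells differed from every other class in this profile: numbers 9 to 13 held 50.1% of their sum, against 0.148% to 2.04% elsewhere. Most of this came from 1 gene, Hoxd9, with 26.4 of the 30.4 CPM per kilobase of these numbers. Its reads lay in 5 of the 22 lymphatic-like cells before thinning.

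The clusters in use differed as well. HoxA supplied 85.8% of the summed level per kilobase in general capillary-like cells, HoxB 58.0% in aerocyte-like cells and HoxD 52.8% in lymphatic-like cells. In pericyte-like cells HoxB (54.3%) and HoxA (44.8%) were nearer to each other, and in fibroblast-like cells HoxA held 58.1% and HoxB 38.6%. HoxC never exceeded 2.65% in a class.

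**Figure D2:**
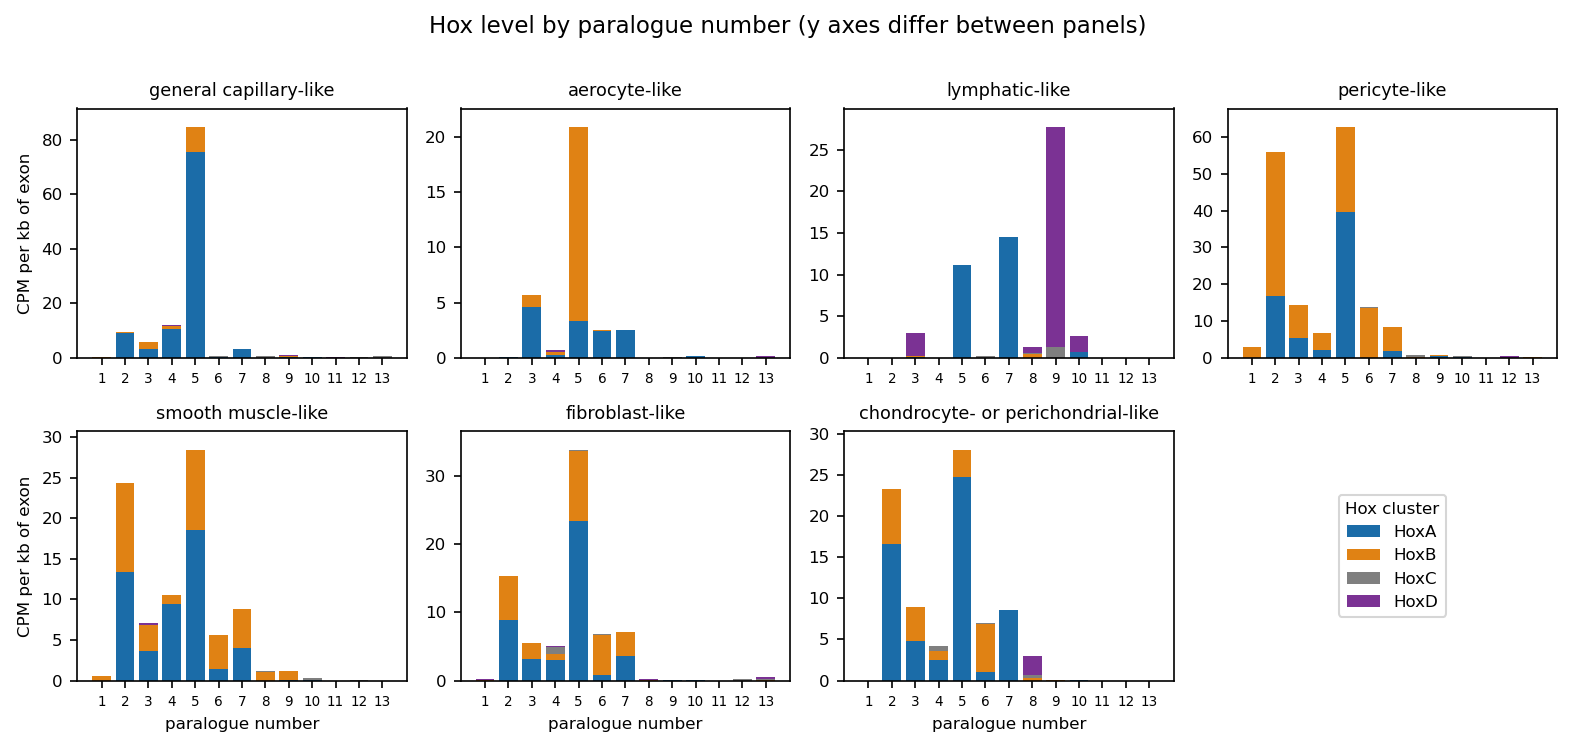
Summed Hox level (CPM per kilobase of exon, y axis, scaled separately in each panel) by paralogue number (x axis) in 7 cell classes, stacked by Hox cluster, with 1 gene not shown. Number 5 is the tallest bar in 6 classes and number 9, almost all of it HoxD, in lymphatic-like cells.

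Hoxa5 led the per-kilobase ranking in 5 of the 7 classes. It stood at 75.4 CPM per kilobase in general capillary-like cells, ahead of Hoxa4 (10.6) and Hoxb5 (9.37). In pericyte-like cells Hoxa5 (39.5) and Hoxb2 (39.2) were level, followed by Hoxb5 (23.3). Hoxa5, Hoxa2 and Hoxb2 led smooth muscle-like cells (18.6, 13.4 and 11.0), and Hoxa5, Hoxb5 and Hoxa2 led fibroblast-like cells (23.3, 10.3 and 8.87). Aerocyte-like cells were led by Hoxb5 (17.6) and lymphatic-like cells by Hoxd9 (26.4). The ranks of Hoxa5 and Hoxb2 depended on the length used. Without division by length, Hoxb2 led pericyte-like cells (137 CPM, Hoxa5 74.2) and smooth muscle-like cells (38.2 CPM, Hoxa5 34.9). By coding length, Hoxb2 led pericyte-like cells (129, Hoxa5 91.6) and Hoxa5 led smooth muscle-like cells (43.1, Hoxb2 36.0). In pericyte-like cells without length, paralogue number 2 held 34.2% and number 5 28.6% of the Hox level. Rank correlations between position in the cluster and level were negative in pericyte-like cells (Spearman's rho -0.717 over 9 HoxA genes and -0.60 over 10 HoxB genes). They ran from -0.717 to 0.244 over all classes and both clusters. The genes of a cluster share their cells and libraries, so these coefficients are descriptions.

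Among the low-numbered HoxB genes, Hoxb2 had the widest gap between mural or fibroblast cells and endothelium. Hoxb2, which patterns the hindbrain and acts with its paralogue Hoxa2, had 0.936, 3.40 and 0 CPM in the general capillary-like cells of EC1, EC2 and EC3, and no read in any aerocyte-like or lymphatic-like cell. In pericyte-like cells it had 112 CPM in Mural1 and 154 in Mural2. The smooth muscle-like cells had 36.0 and 39.6 CPM in the same sets, and the fibroblast-like cells 15.4, 27.9 and 22.7 in Mural1, Mural2 and Mural3. Every mural or fibroblast set thus lay above every endothelial set, and pericyte-like cells were highest in both sets that held them. A Hoxb2 read was found in 59.1% (95% exact binomial interval 46.3 to 71.1) of pericyte-like cells, 46.5% of smooth muscle-like, 30.0% of fibroblast-like and 1.21% of general capillary-like cells.

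Hoxb6, a middle gene of the cluster known from limb and trunk patterning, had a similar split at a lower level. It had 0, 0.917 and 0.221 CPM in the general capillary-like cells of EC1, EC2 and EC3, against 32.5 and 22.8 CPM in the pericyte-like cells of Mural1 and Mural2. In fibroblast-like cells it stood at 7.36, 15.3 and 11.6 CPM over Mural1, Mural2 and Mural3, and in smooth muscle-like cells at 13.7 and 6.38. No mural or fibroblast set overlapped an endothelial set, while the smooth muscle-like and fibroblast-like sets overlapped each other. Hoxb6 was read in 16.7% of pericyte-like, 14.1% of smooth muscle-like and 16.0% of fibroblast-like cells.

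**Figure D3:**
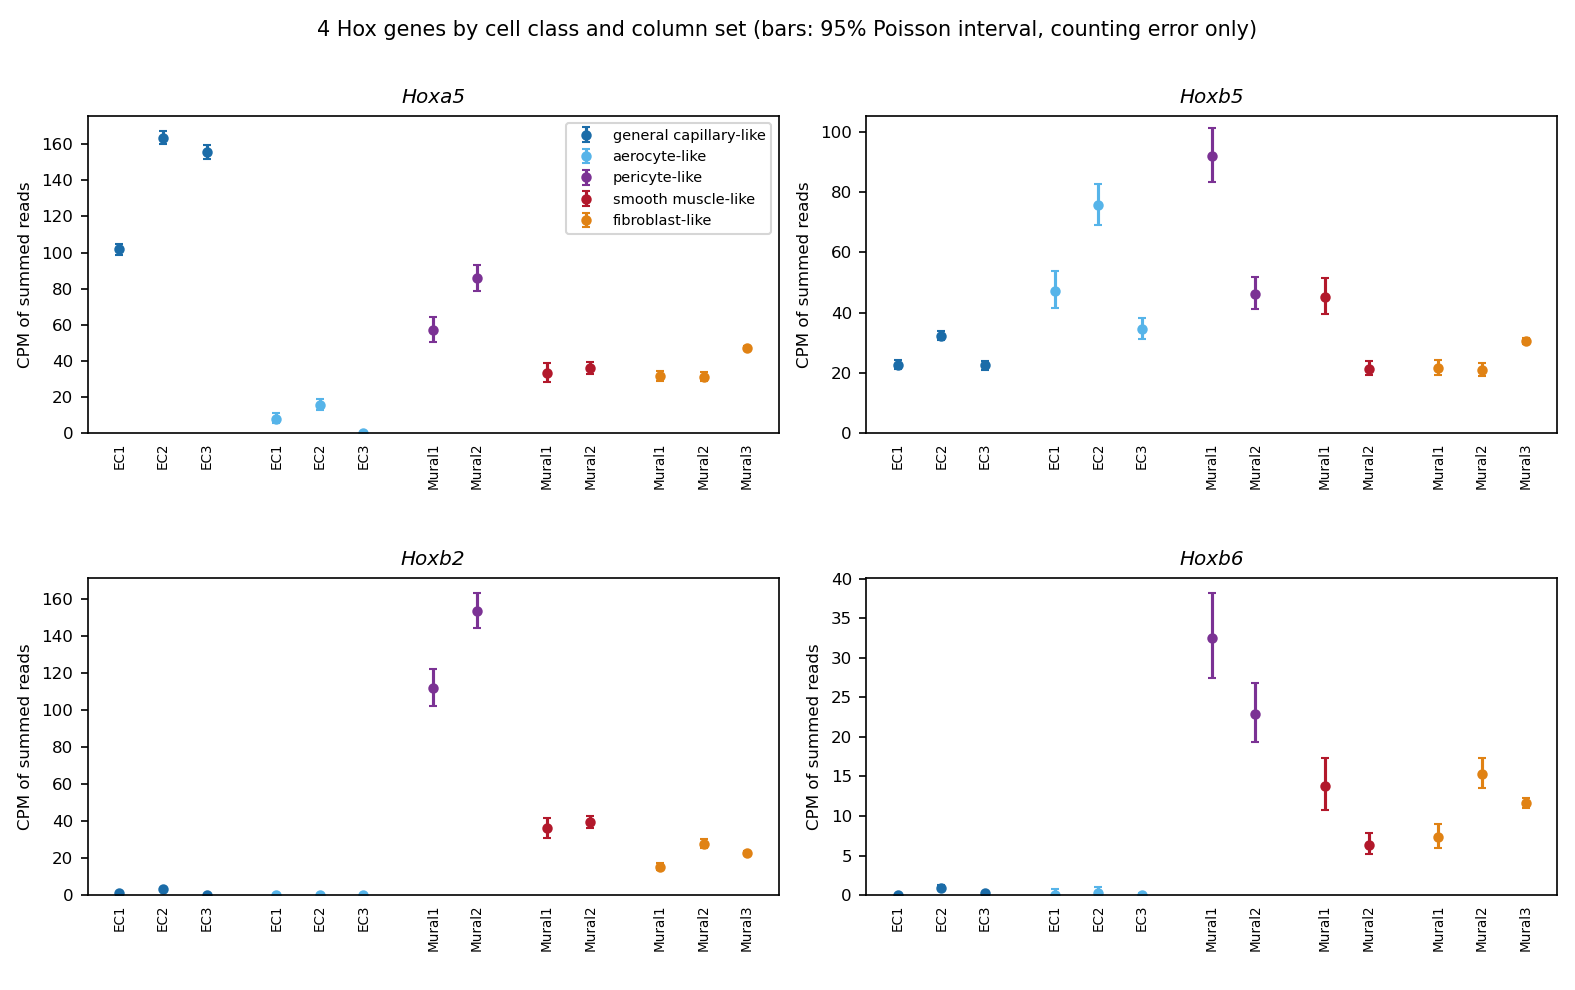
Level (CPM of summed reads, y axis, from 0) of Hoxa5, Hoxb5, Hoxb2 and Hoxb6 in 5 cell classes, 1 point per column set (x axis), with 95% Poisson intervals for counting error only. Hoxb2 and Hoxb6 are near 0 in every endothelial set, and Hoxa5 is high in general capillary-like sets and low in aerocyte-like ones.

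For pairs of groups, a gene was called different when the higher group had at least 10 CPM and a read in 10% of cells and the fold was at least 4. Between whole column sets, Mural1 and Mural2 together had 2 of 36 Hox genes higher than the Cldn5-eGFP cells, where 5.99% of all 21947 genes were higher, and 0 lower (2.44% of all genes). The 2 genes were Hoxb2, 29.5-fold higher (95% counting interval 25.6 to 34.2), and Hoxb6, 32.1-fold (24.4 to 42.8). Mural3 gave the same 2 of 36 genes, where 4.71% of all genes were higher and 3.41% lower, with Hoxb2 16.9-fold (14.7 to 19.6) and Hoxb6 33.3-fold (25.5 to 44.5) above the Cldn5-eGFP cells. Both calls stood without the mixed cells, an alternative chosen after seeing the data, at log2 differences of 5.10 and 5.23 for Mural1 and Mural2 together. Without Mural1, Hoxb6 was no longer called in the first comparison, at a log2 difference of 4.89 (5.00 with all sets), still above the minimum fold. These comparisons share the Cldn5-eGFP cells, as the class comparisons below share their endothelial cells.

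Between classes, the size rule was applied to the 10972 genes not used for clustering, the genes tested below. Pericyte-like cells had 4 of 36 Hox genes higher than endothelial-like cells, against 3.94% of genes tested, and 0 lower (3.15%); all 4 were neighbours or near neighbours in HoxB. Hoxb2 was 109-fold higher (93.7 to 126), Hoxb6 78.0-fold (58.4 to 106), Hoxb4 5.29-fold (4.31 to 6.46) and Hoxb3 4.03-fold (3.60 to 4.49). The median log2 difference over the 36 genes was 1.10, beside 0.13 over all genes tested. Fibroblast-like cells had 2 of 36 higher (4.73% of genes) and 0 lower (3.52%), Hoxb2 by 18.0-fold (15.6 to 20.8) and Hoxb6 by 34.0-fold (26.0 to 45.3), with a median log2 difference of 0.00 over the 36 genes and -0.53 over all genes. Smooth muscle-like cells had 1 of 36 higher (4.94% of genes) and 0 lower (3.57%), Hoxb2 by 30.3-fold (25.9 to 35.6). Their Hoxb6 level, 8.21 CPM against 0.343, was 23.9-fold higher (17.6 to 33.1) but under the level minimum.

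The size of the Hoxb2 and Hoxb6 folds depended on EC2, which held most of their few endothelial reads. Without EC2 the log2 difference in Hoxb2 between pericyte-like and endothelial-like cells went from 6.76 to 8.51, and without EC3, which had no Hoxb2 read, to 6.16. The matching values were 5.92 and 3.56 for fibroblast-like cells (4.17 with all sets), 6.67 and 4.31 for smooth muscle-like cells (4.92), 6.63 and 4.27 for Mural1 and Mural2 together (4.88) and 5.83 and 3.47 for Mural3 (4.08). For Hoxb6 without EC2 the log2 differences were 8.27 in pericyte-like cells (6.29 with all sets), 7.07 in fibroblast-like cells (5.09), 6.99 in Mural1 and Mural2 together (5.00) and 7.04 in Mural3 (5.06). All of these stayed above the fold minimum.

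Hoxb3, which marks the hindbrain and pharyngeal region, had 45.3 and 33.1 CPM in the pericyte-like cells of Mural1 and Mural2, and 14.3, 4.42 and 14.6 CPM in the general capillary-like cells of EC1, EC2 and EC3. Its call sat at the minimum fold and was lost without EC2 or Mural1, with TMM scaling, at a minimum of 50 CPM and 25% of cells, and with classes taken from markers per cell. Of its exon bases 52.9% overlap the antisense transcript Hoxb3os; 27.3% of those of Hoxb2 do so too. SMART-seq2 reads keep no strand, so a gene and its antisense partner cannot be told apart. Hoxb4 and Hoxb6 have no annotated exon overlap.

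Hoxb4, known for its role in blood stem cells, was low everywhere but had its highest level in pericyte-like cells, 7.62 CPM in Mural1 and 15.3 in Mural2. The other classes lay between 0 and 2.87 CPM. Its call against endothelial-like cells was lost without Mural2, at a log2 difference of 1.72. Reads were in 10 of 66 pericyte-like cells after thinning and in 18 before, with a median of 2.5 reads per positive cell before thinning, and 23.1% of the class's reads came from 1 cell.

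Fibroblast-like and pericyte-like cells were compared in the same way, and the count of Hox genes called was near the share over all genes. Fibroblast-like cells had 2 of 36 lower than pericyte-like cells, against 4.09% of genes tested, and 0 higher (4.77%). Hoxb2 was 6.04-fold lower (5.68 to 6.42) and Hoxb4 5.29-fold lower (4.29 to 6.48). The medians of log2 differences were -1.83 over the Hox genes and -0.74 over all genes. TMM scaling, which moved this comparison by -0.60 on the log2 scale, ended both calls, with Hoxb2 at -2.00. The Hoxb4 difference was also lost without Mural2 (-1.70), without Mural3 (-1.80) and without the single cell with most of its reads.

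Smooth muscle-like and pericyte-like cells differed in 1 gene in each direction, against 4.78% of genes higher and 3.85% lower in smooth muscle-like cells. Hoxb4 was 4.25-fold lower (3.10 to 5.89). Hoxa4, known from axial skeletal patterning, was 4.69-fold higher (3.30 to 6.86). It had 37.4 and 7.19 CPM in the smooth muscle-like cells of Mural1 and Mural2, against 7.84 and 0 in the pericyte-like cells. The sets thus overlapped, and the Hoxa4 call was lost without Mural1, although the log2 difference of 3.95 was then larger than the 2.23 of all sets. The Hoxa4 call was also lost without doublet-like cells, without its top cell and with classes taken from markers per cell. The Hoxb4 call was lost with TMM or median-ratio scaling and without its top cell. Both were lost at a minimum of 50 CPM and 25% of cells.

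Between fibroblast-like and smooth muscle-like cells 0 of 36 Hox genes were called, where 5.81% of genes differed. Fibroblast-like cells of Mural1 and Mural2 against those of Mural3 gave 0 of 36 at a minimum fold of 2, where 3.54% of 21947 genes differed. Chondrocyte- or perichondrial-like cells gave 0 of 36 against fibroblast-like cells, where 5.60% of genes differed. Their Hoxa7 level was 24.7 CPM against 10.6 (2.34-fold, 2.07 to 2.65) and their Hoxb5 level 9.34 against 28.6 CPM (3.06-fold lower, 2.56 to 3.70), both short of the minimum. Counts of 0 came from the size rule, with no test behind them.

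The 4 fibroblast-like clusters had 240, 79, 43 and 38 cells. None of the first 3 had a Hox gene called against the other fibroblast-like cells, where 0.492%, 0.911% and 2.07% of genes differed in either direction. The cluster of 38 cells was led by Col28a1, with Enpp2 and Hhip further down its leading genes. It had 1 of 36 higher (1.49% of genes) and 0 lower (1.28%). The gene was Hoxb7, at 17.9 against 4.04 CPM (4.44-fold, 3.79 to 5.19), and the call was lost with TMM or median-ratio scaling. No other Hox gene was called among the 4 clusters, although levels differed. Hoxa5 had 42.1, 39.0, 33.0 and 78.7 CPM in the order of cluster size, Hoxb5 26.4, 19.4, 45.6 and 43.2, and Hoxb2 21.9, 18.0, 30.5 and 28.4.

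The 2 main members of paralogue group 5 differed in opposite directions between the capillary classes. Hoxa5 had 102, 164 and 156 CPM in the general capillary-like cells of EC1, EC2 and EC3, and 8.12, 15.9 and 0.0839 CPM in the aerocyte-like cells of the same sets. The ranges did not overlap, and in each set the general capillary-like cells were higher. Hoxb5 went the other way by level, with 22.7, 32.3 and 22.5 CPM in general capillary-like cells and 47.3, 75.7 and 34.6 CPM in aerocyte-like cells, again without overlap. A Hoxa5 read was found in 31.3% (27.8 to 35.0) of general capillary-like and 5.41% (1.49 to 13.3) of aerocyte-like cells, and a Hoxb5 read in 11.7% (9.30 to 14.3) and 33.8% (23.2 to 45.7).

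In this comparison, added after seeing the data, Hoxa5 was the 1 of 36 called lower in aerocyte-like cells, where 1.64% of genes tested were lower, and 0 were higher (0.930%). The fold was 22.6 (19.3 to 26.8), or -4.50 on the log2 scale, and -5.70 without EC2 and -3.43 without EC3. Hoxb5, at 1.88-fold (1.75 to 2.00), was under the minimum of 4. Of the reads of the pair, Hoxa5 held 84.4% (83.9 to 84.9) in general capillary-like cells and 11.3% (9.66 to 13.2) in aerocyte-like cells. The share was 53.4% in pericyte-like, 56.1% in smooth muscle-like, 60.5% in fibroblast-like and 83.2% in chondrocyte- or perichondrial-like cells. By cell, 184 general capillary-like cells had Hoxa5 alone, 54 Hoxb5 alone and 23 both, while 3 aerocyte-like cells had Hoxa5 alone, 24 Hoxb5 alone and 1 both. The exons of Hoxa5 overlap no other annotated gene and those of Hoxb5 overlap an antisense transcript over 3.59% of their bases.

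Lymphatic-like cells, which line the vessels that drain tissue fluid, were the only class in which HoxD genes reached the level minimum. Hoxd9, a gene of limb and lumbosacral patterning, had 81.0, 29.4 and 56.2 CPM in the lymphatic-like cells of EC1, EC2 and EC3 (7, 6 and 9 cells). It had 1.85, 0.0208 and 0 CPM in the general capillary-like cells of those sets and 0 in aerocyte-like, pericyte-like and smooth muscle-like cells. Hoxd3 had 26.8, 4.37 and 5.70 CPM in the lymphatic-like cells of the 3 sets, against 0, 0 and 1.15 CPM in general capillary-like cells. Both genes were thus above the general capillary-like cells in every set.

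Against general capillary-like cells, in a comparison also added after seeing the data, lymphatic-like cells had 3 of 36 Hox genes higher (3.45% of genes tested) and 2 lower (3.87%). Hoxd9 was 94.7-fold higher (73.8 to 123), Hoxd3 32.9-fold (22.4 to 48.7) and Hoxa7 4.76-fold (4.13 to 5.47). Hoxa5 was 6.79-fold lower (5.68 to 8.18), with 90.2% of its lymphatic-like reads in 1 cell, without which the level went from 20.9 to 2.14 CPM. Hoxb5 had 0 reads in the 22 cells, which against a floor of 3 reads makes it at least 50.9-fold lower. The class is small and its reads were uneven: 15 of 22 cells had a read of some HoxD gene before thinning, 10 of Hoxd3, 5 of Hoxd9 and 2 of both. The positive cells had 1 to 138 Hoxd9 reads (median 50) and 1 to 26 Hoxd3 reads (median 3). Hoxa7 reads lay in 5 cells, and its level was 128, 0 and 6.11 CPM over EC1, EC2 and EC3, so that the sets overlapped those of general capillary-like cells (6.5, 11.1 and 8.53). Leaving out a set would leave under 20 lymphatic-like cells and was not run.

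The antisense transcript Hoxd3os1 was read in 6 lymphatic-like cells, all of which also had Hoxd3, at 12.5 CPM against 0.290 in general capillary-like cells. Of the exon bases of Hoxd3, 62.9% overlap Hoxd3os1, Haglr, Hoxd4 or another transcript, so the reads cannot be told apart by strand. Haglr, a further antisense gene of the cluster, had no read in these cells, and the exons of Hoxd9 overlap no annotated gene. The plot of the 3 endothelial classes shows the shares and levels of these genes side by side.

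**Figure D4:**
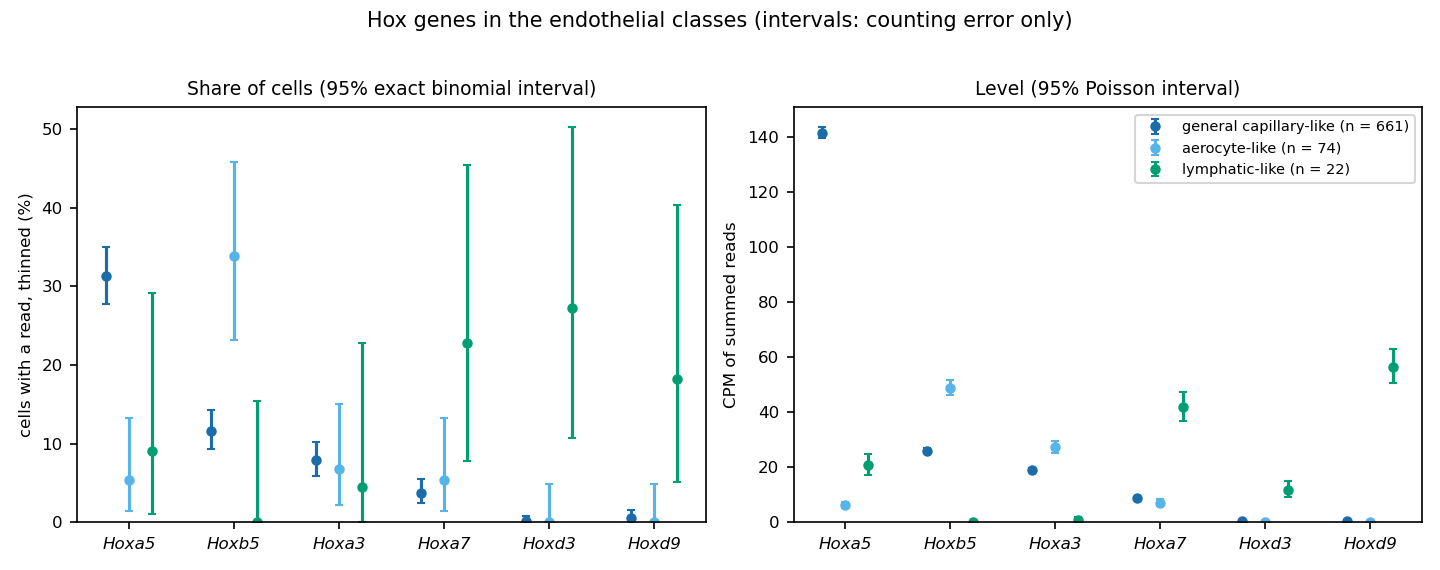
Share of cells with a read (left, in %, exact binomial 95% intervals) and level (right, CPM, Poisson 95% intervals, counting error only) of 6 Hox genes in general capillary-like, aerocyte-like and lymphatic-like cells. Hoxa5 is highest in general capillary-like cells, Hoxb5 in aerocyte-like cells, and Hoxa7, Hoxd3 and Hoxd9 in lymphatic-like cells, whose intervals are wide.

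No HoxA gene was called between endothelial-like cells and pericyte-like, smooth muscle-like or fibroblast-like cells. Hoxa3, which acts in thymus, thyroid and pharyngeal arch development, had 18.8, 20.2 and 16.6 CPM in the general capillary-like cells of the 3 EC sets. It had 41.7 and 26.7 in pericyte-like, 19.8 and 22.8 in smooth muscle-like and 18.4, 17.6 and 18.8 in fibroblast-like cells. The pericyte-like sets were above the general capillary-like ones and the other 2 classes overlapped them. A Hoxa3 read was found in 7.87% of general capillary-like cells and in 24.2%, 31.0% and 27.5% of pericyte-like, smooth muscle-like and fibroblast-like cells. The median positive general capillary-like cell held 17 reads before thinning, against 17.5 in pericyte-like, 7 in smooth muscle-like and 11 in fibroblast-like cells. In aerocyte-like cells the set levels were 1.98, 74.7 and 11.6 CPM, and 1 cell held 53.5% of the reads.

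Hoxa2, a hindbrain and second-arch gene, had 6.46, 13.7 and 28.3 CPM in the general capillary-like cells of EC1, EC2 and EC3 from 3.03% of the cells, 34.2% of the reads being in 1 cell. It had 21.3 and 35.2 CPM in pericyte-like, 21.5 and 25.0 in smooth muscle-like and 12.4, 33.1 and 13.5 in fibroblast-like cells, with reads in 7.58%, 16.9% and 12.0% of the cells. In pericyte-like cells 49.5% of the reads were in 1 cell, without which the level went from 29.6 to 15.3 CPM. The levels of the classes overlapped. In aerocyte-like cells it had 2 reads and in lymphatic-like cells 0. Hoxa4 showed 18.6, 17.8 and 12.4 CPM in general capillary-like cells from 3.48% of the cells, and 2.81, 5.71 and 4.80 CPM in fibroblast-like cells from 6.00%. Hoxa7, a trunk gene, had 6.5 to 11.1 CPM over the general capillary-like sets and 7.43 to 14.3 over the fibroblast-like sets, which overlapped.

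Mural and fibroblast cells held several Hox genes at a time, and endothelial cells mostly 0 or 1. At 50000 reads the mean number of Hox genes with a read was 0.80 ± 0.836 (SD over 661 cells) in general capillary-like cells, 0.649 ± 0.730 in aerocyte-like cells and 1.09 ± 1.11 in lymphatic-like cells. It was 2.79 ± 1.52 in pericyte-like, 2.70 ± 1.32 in smooth muscle-like, 2.20 ± 1.36 in fibroblast-like and 2.88 ± 1.83 in chondrocyte- or perichondrial-like cells. Over the column sets the means ran from 0.704 to 0.888 in general capillary-like cells, from 2.58 to 3.12 in pericyte-like cells and from 2.05 to 2.46 in fibroblast-like cells, so these sets did not overlap the general capillary-like ones. No Hox gene was read in 41.9% of general capillary-like cells, 47.3% of aerocyte-like and 40.9% of lymphatic-like cells, against 3.03% of pericyte-like, 7.04% of smooth muscle-like and 11.0% of fibroblast-like cells. At least 5 were read in 16.7% of pericyte-like and 0 of 757 endothelial cells.

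The number of all genes detected was also lower in the endothelial classes than in the mural and fibroblast classes. Within these groups it did not follow the Hox count. Aerocyte-like cells had more genes but fewer Hox genes than general capillary-like cells. Pericyte-like cells had fewer genes but more Hox genes than smooth muscle-like or fibroblast-like cells. At the same depth the median cell had 1583 genes in the general capillary-like class, 2156 in the aerocyte-like, 2432 in the pericyte-like, 3417 in the smooth muscle-like and 3234 in the fibroblast-like class. Per 1000 genes detected, the mean number of Hox genes was 0.497 in general capillary-like, 0.315 in aerocyte-like and 0.548 in lymphatic-like cells. It was 1.12 in pericyte-like, 0.766 in smooth muscle-like, 0.675 in fibroblast-like and 0.856 in chondrocyte- or perichondrial-like cells. The order of endothelial below mural classes was thus the same on this scale, with smaller gaps.

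**Figure D5:**
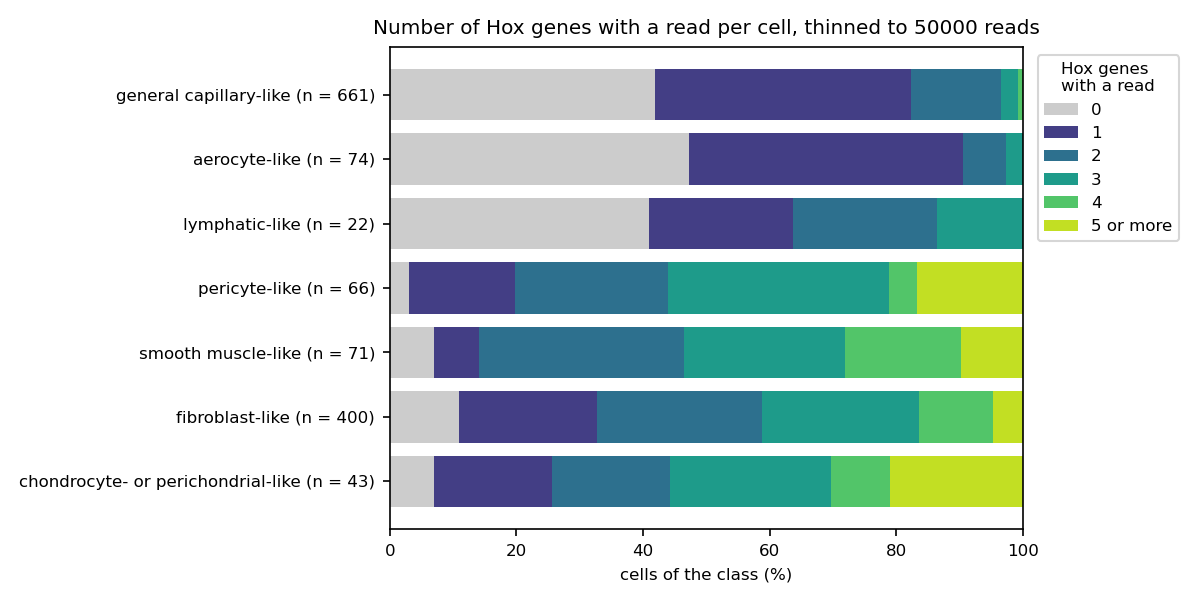
Share of cells (x axis, in %) by the number of Hox genes with a read after thinning to 50000 reads, in 7 cell classes (bars). Cells with 0 Hox genes make up 40.9% to 47.3% of the endothelial classes and 3.03% to 11.0% of the others.

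A read from both HoxA and HoxB was found in 8.32% of general capillary-like cells, 59.1% of pericyte-like, 60.6% of smooth muscle-like and 43.3% of fibroblast-like cells. A HoxD read was found in 45.5% of lymphatic-like cells (10 of 22, interval 24.4 to 67.8) and in 1.35% to 6.98% of the cells of the other classes. Within a class, most pairs of Hox genes had coefficients of co-detection near 0. Over 21 pairs of genes in pericyte-like cells the phi coefficient, a correlation of presence and absence, had a median of 0.01, from -0.31 for Hoxa3 with Hoxb3 to 0.27 for Hoxb4 with Hoxb6. Over 28 pairs in the 400 fibroblast-like cells it ran from -0.08 to 0.16 (Hoxa2 with Hoxa5), with a median of 0.01. The neighbours Hoxb2 and Hoxb3 were read together in 22.7% of pericyte-like cells (13.3 to 34.7), and the product of their single shares was 23.3%. Presence rests on few reads and pairs share the same cells, so these coefficients are descriptions.

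Of 9 TALE cofactors, the partners of HOX proteins, 3 were higher in pericyte-like than in endothelial-like cells, where 3.94% of genes tested were higher: Meis3 by 32.1-fold (27.6 to 37.5), Pbx2 by 4.42-fold (4.03 to 4.83) and Pknox2. The median log2 difference over the 9 was 1.67, beside 0.13 over all genes tested. In fibroblast-like cells 1 of 9 was higher (4.73% of genes tested), Meis3, at 26.6 against 1.53 CPM (17.3-fold), as it was in smooth muscle-like cells (19.4-fold, where 4.94% of genes were higher). In lymphatic-like cells 2 of 9 were lower than in general capillary-like cells (3.87% of genes tested), among them Meis1 at 4.62 against 190 CPM (41.2-fold). Against fibroblast-like cells, chondrocyte- or perichondrial-like cells had 1 of 9 higher, Pbx3, at 141 against 3.75 CPM. They had 1 of 9 lower, Meis3, at 5.44 against 26.6 CPM, where 5.60% of genes tested differed in either direction.

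Retinoic acid is a known inducer of low-numbered Hox genes, and its enzymes varied. Of 16 measured genes for caudal factors, retinoic acid receptors and enzymes, 3 were higher in fibroblast-like than in endothelial-like cells (4.73% of genes tested): Aldh1a2 by 79.0-fold, Aldh1a3 by 33.5-fold and Aldh1a1 by 15.9-fold, all enzymes that make retinoic acid. Pericyte-like cells had 1 of 16 higher, Aldh1a1 (5.45-fold), where 3.94% of genes were higher, and smooth muscle-like cells 1 of 16, Aldh1a2 (86.4-fold), where 4.94% were. A count of 1 of 16 is near these shares. The median log2 difference of the list was 0.05, 0.03 and 0.03 in fibroblast-like, pericyte-like and smooth muscle-like cells. In chondrocyte- or perichondrial-like against fibroblast-like cells 2 of 16 were higher and 1 lower, where 5.60% of genes tested differed in either direction. The higher ones were the degrading enzymes Cyp26a1 and Cyp26b1, Cyp26b1 at 70.3 against 2.86 CPM (24.6-fold). The lower one was Aldh1a2, at 1.38 against 113 CPM (81.8-fold).

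Counts for the chromatin regulators of Hox clusters were at most 1 gene a list against endothelial-like cells. Of 16 Polycomb genes, which keep Hox clusters silent, 1 was lower in pericyte-like cells (Bmi1; 3.15% of genes tested) and 0 passed in fibroblast-like or smooth muscle-like cells. Of 10 Trithorax genes, which keep them active, 1 was lower in fibroblast-like (3.52% of genes tested) and in pericyte-like cells (Kdm6a in both) and 0 were higher. In lymphatic-like against general capillary-like cells 1 of 16 Polycomb genes (Phc3) and 1 of 10 Trithorax genes (Kdm6a) were lower, where 3.87% of genes were, and in aerocyte-like cells 1 of 16 and 0 of 10 were lower (Jarid2; 1.64%). Between fibroblast-like cells of Mural1 and Mural2 and those of Mural3, at a minimum fold of 2, 2 of 16 Polycomb genes were higher (Jarid2 and Phc2) and 1 lower (Phc3), and 1 of 10 Trithorax genes was lower (Kdm6a), where 3.54% of genes differed in either direction. Of 20 other transcription factors of lung mesenchyme, 10 were higher and 3 lower in fibroblast-like than in endothelial-like cells (4.73% and 3.52% of genes tested). Tbx4 stood at 65.7 against 0.873 CPM and Tbx5 at 36.6 against 1.48 CPM, both regional factors of the lung, while Foxf1 was lower at 48.3 against 575 CPM. Of 11 measured genes of geminin and Hox-linked non-coding and even-skipped genes, a list lengthened after seeing the files, 0 passed in pericyte-like, smooth muscle-like or fibroblast-like against endothelial-like cells, and in lymphatic-like cells Hoxd3os1 alone did. In pericyte-like cells Tbx4 reached 596 CPM and Tbx5 437 CPM, which were 9.07-fold and 11.9-fold above fibroblast-like cells.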

How the data were processed

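The authors' deposited matrix gave raw read counts of genes in single cells. A second deposited matrix gave the authors' normalized score, which equalled reads × 500000 / cell total, rounded, for 100% of values. STAR 2.4.2a and mm10 are named per the submitters' processing notes; the counter and annotation are not given in the sources used here. The eGFP row (0.168% of reads) was left out. Per cell, reads ranged from 100229 to 609242.

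Cells were clustered on all their reads, scaled to the total of each cell and not thinned. The settings were 2000 variable genes, 30 principal components, 15 neighbours and Leiden resolution 1 (leidenalg 0.10.2, scikit-learn 1.9.0, Python 3.11.15). Hox genes, the listed genes and a random part of the rest, 10972 genes in all, were left out. Thinning to 50000 reads served the shares of cells, the markers and the numbers of genes per cell. Clusters were named from marker lists, with thresholds set after seeing the files (40% of own markers; mixed at 50% of epithelial or leukocyte markers). No doublet caller was run; cells with at least 5 endothelial and 5 pericyte, smooth muscle or fibroblast markers were left out as an alternative. Reads were summed per class and column set, each 1 sample, so no test was made. A difference needed 10 CPM and 10% of cells on the higher side, 20 cells a side and a fold of 4 (2 between column sets), with a floor of 3 reads. Intervals are 95% Poisson or exact binomial. The size rule was tested on simulated data. Every Hox gene reaching 10 CPM and 10% of cells was named, with up to 4 listed genes per comparison; Hoxb7 and the HoxC genes were named after their values were seen. Members and lists were chosen with earlier results of these data known. Lengths and promoter windows are those of the GRCm38.p6 annotation. Individual values of a few genes are not reported here, and the plots by paralogue number leave 1 of them out.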

Additional observations from a re-analysis of the deposited data

How the results depend on the processing

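Over 305 alternatives for single Hox genes, 267 kept the call, 38 lost it and 0 changed direction. Over 179 alternatives for the counts of called genes, 141 were within 1.5 times and 38 were not. With a minimum of 50 CPM and 25% of cells the count was 0 for Mural1 and Mural2 together, Mural3, fibroblast-like and smooth muscle-like cells against endothelium, smooth muscle-like against pericyte-like cells and the fibroblast-like clusters, and 1 for pericyte-like against endothelial-like, fibroblast-like against pericyte-like and lymphatic-like against general capillary-like cells. With no level minimum the counts were 9 (Mural1 and Mural2), 14 (Mural3), 12 (fibroblast-like), 16 (pericyte-like) and 13 (smooth muscle-like) against endothelium, 15 for fibroblast-like against pericyte-like, 11 for fibroblast-like against smooth muscle-like, 8 for smooth muscle-like against pericyte-like, 16 for fibroblast-like cells between column sets, 19 for aerocyte-like, 22 for lymphatic-like, 10 for chondrocyte- or perichondrial-like cells and 33 for the fibroblast-like clusters. Without a level minimum, genes with a few reads can pass against the floor of 3 reads, and the count for the clusters sums 4 comparisons. Shares over all genes were computed for the main rule only, so the counts under alternatives have no background beside them. With TMM factors the count was 0 for fibroblast-like against pericyte-like cells and, as with median-ratio factors, 1 for smooth muscle-like against pericyte-like cells and 0 for the fibroblast-like clusters. Without doublet-like cells, and with classes from markers per cell, smooth muscle-like against pericyte-like cells gave 1; with those classes chondrocyte- or perichondrial-like cells also gave 1. Without the cell with most reads of each gene, fibroblast-like against pericyte-like cells gave 1 and smooth muscle-like against pericyte-like cells 0. At Leiden resolution 0.5 the fibroblast-like clusters gave 2. Leaving out a column set in turn gave 1 to 2 for Mural1 and Mural2 against Cldn5-eGFP, 1 to 2 for smooth muscle-like against endothelial-like, 0 to 1 for fibroblast-like against smooth muscle-like, 0 to 2 for fibroblast-like cells between column sets and 1 to 2 for fibroblast-like against pericyte-like cells; for lymphatic-like cells it was not run. The cause of these changes was not tested.

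At a minimum of 3 reads, the share with both Hoxb2 and Hoxb3 was 7.58% in pericyte-like, 4.22% in smooth muscle-like and 0.750% in fibroblast-like cells, with both Hoxb3 and Hoxb4 0% in pericyte-like cells, with both Hoxa2 and Hoxa3 1.41% in smooth muscle-like, 2.00% in fibroblast-like and 2.33% in chondrocyte- or perichondrial-like cells, and with both Hoxb5 and Hoxb6 2.50% in fibroblast-like and 0% in chondrocyte- or perichondrial-like cells. Without division by length, paralogue number 5 held 65.1% of the Hox level in general capillary-like, 55.6% in aerocyte-like, 14.3% in lymphatic-like, 28.6% in pericyte-like, 27.2% in smooth muscle-like, 39.2% in fibroblast-like and 26.6% in chondrocyte- or perichondrial-like cells (31.6% by coding length). The mean number of Hox genes per cell moved by less than 1 SD over cells in 27 of 27 alternatives. That SD is a wide bound for a mean, so this does not show stability. Without thinning the mean rose from 2.20 to 3.02 in fibroblast-like, from 1.09 to 1.64 in lymphatic-like and from 0.80 to 0.971 in general capillary-like cells. TMM and median-ratio factors moved all genes by -0.50 and -0.50 (log2) for fibroblast-like against endothelial-like, -0.43 and -0.45 for Mural3, -0.60 and -0.35 for fibroblast-like against pericyte-like and -0.29 and -0.38 for aerocyte-like against general capillary-like cells. No paired analysis was possible because the labels give no replicate numbers and each group was 1 sample. With 22 lymphatic-like and 66 pericyte-like cells, shares of cells carry wide intervals.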
